A study of Homo sapiens with 4 samples.

Results

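The array of HuCCT1 cells given GEM and VPA together (label GEM_VPA) was set against the array of untreated HuCCT1 cells, which are 2 of the 4 arrays in the series. HuCCT1 is an established human cholangiocarcinoma (bile duct cancer) cell line. All 4 conditions used this line: GEM_VPA, VPA alone, GEM alone and untreated, with 1 Affymetrix Human Gene 1.0 ST array each. The 2 arrays were chosen by their labels, and genes were the mean of array rows that the platform annotation gives exactly 1 symbol. VPA and GEM are the labels' abbreviations and are read here as valproic acid and gemcitabine. Not given in the sources used here were doses, exposure times and culture batches. No condition was replicated, so each difference below is a size on the log2 scale, with no error and no p-value.

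Valproic acid is a branched fatty acid that inhibits histone deacetylases (HDACs), enzymes that remove acetyl groups from histones, and its use in cancer cells is known to switch on many genes that are otherwise weakly transcribed. Gemcitabine is a deoxycytidine analogue. Once phosphorylated in the cell it is built into DNA and inhibits ribonucleotide reductase, which stalls replication and activates checkpoint signalling.

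The 2 arrays were close. Over all 28869 rows, the GEM_VPA and untreated arrays correlated at 0.996, as did the VPA and GEM arrays, while every pair across these correlated between 0.984 and 0.987. All directions below follow the labels as given. Which array received which drug cannot be settled from 1 array per condition and was not tested. Array medians lay between 7.87 and 7.92 (log2 intensity). The keratins KRT8, KRT18 and KRT19 and the surface protein EPCAM are epithelial genes on the bile duct marker list. They lay between 12.8 and 13.7 on the GEM_VPA and the untreated arrays. PTPRC, the pan-leukocyte marker, was at 5.21 on the GEM_VPA array and 5.27 on the untreated array. That is below the 25th percentile of rows (6.41 and 6.42). The bile duct chloride channel CFTR was also low (5.70 with GEM_VPA, 5.83 untreated). Other bile duct markers lay between these extremes. KRT7 was at 8.93 with GEM_VPA and 9.53 untreated, CD24 at 8.69 and 7.97, and SPP1 at 9.13 and 7.65. The untreated SPP1 value was below the array median. Of 13 leukocyte markers, 2 were at level by the filter given below and 0 of them passed a 1.5-fold limit. Their summed linear intensity was 2280 with GEM_VPA and 2574 untreated, and the largest difference, for the lysozyme gene LYZ (-0.72), was not at level. HuCCT1 is a cell line and only 2 of these 13 markers were at level, so the sums were not read as numbers of leukocytes. More generally, in bulk RNA, fewer cells of a type and less RNA per cell cannot be told apart.

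A gene was counted as different when its ratio between the 2 arrays reached 2-fold and the array with more signal placed it in the upper 50% of rows (called at level). This filter left 11489 of 18377 genes. At 2-fold, 14 genes were higher on the GEM_VPA array (0.122% of genes at level) and 3 were lower (0.0261%). A smaller limit of 1.5-fold was used for the small differences. At this limit 142 genes were higher (1.24%) and 42 lower (0.366%). Both sides were more even at 1.25-fold, with 610 higher and 409 lower. Of genes at level, only TNFSF18, which was lower, passed 3-fold, and CNTN1 lay just short of it on the higher side. The middle 50% of genes at level had differences between -0.13 and 0.09, with a median of -0.03, and the central 98% lay between -0.46 and 0.63. The upper tail was the longer one. Of all 18377 genes, 42.5% had a difference above 0 and 10561 lay below it. These shares, with 1.24% higher and 0.366% lower at 1.5-fold, are the background for the list counts below. Of the genes with a mean level between 8 and 9, 2.22% were 1.5-fold higher and 0.369% lower. Above level 12, 0 of 800 genes were 1.5-fold higher and 1 was lower.

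**Figure D1:**
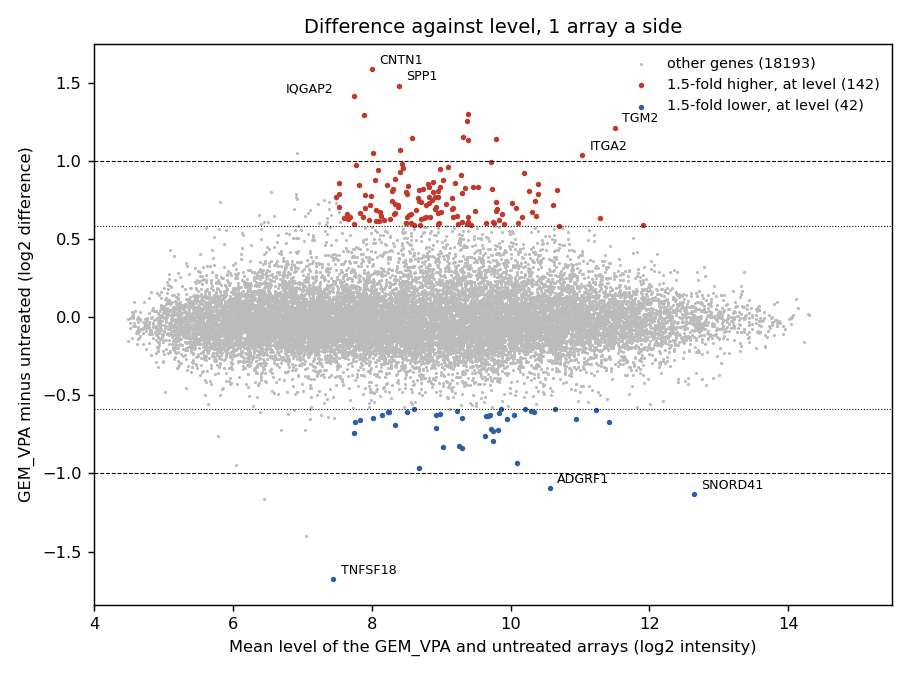
GEM_VPA minus untreated difference (log2) of each gene against its mean level on these 2 arrays (log2 intensity). Each point is 1 gene, with the 142 genes 1.5-fold higher in red and the 42 genes 1.5-fold lower in blue. Dotted lines mark the 1.5-fold limit and dashed lines the 2-fold limit. Most genes lie between the dotted lines, and more genes lie above them than below.

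The genes 2-fold higher on the GEM_VPA array included 2 secreted matrix proteins, an integrin subunit and a matrix crosslinking enzyme. Integrins are heterodimeric receptors that tie cells to the extracellular matrix, and fibronectin and osteopontin are 2 of their secreted ligands. SPP1, which encodes osteopontin, had a level of 9.13 on the GEM_VPA array, 8.91 with VPA, 7.28 with GEM and 7.65 untreated (2.79-fold higher with GEM_VPA than untreated). FN1, fibronectin, was at 9.95 on the GEM_VPA array, 11.52 with VPA, 10.90 with GEM and 8.82 untreated (2.19-fold). SPP1 was thus highest on the GEM_VPA array, whereas FN1 was higher with either drug alone. ITGA2, the integrin alpha 2 subunit that binds collagen and laminin, was at 11.55 with GEM_VPA, 12.22 with VPA, 11.69 with GEM and 10.51 untreated (2.05-fold). TGM2, a transglutaminase that crosslinks proteins and binds fibronectin, was at 12.11, 13.52 and 12.96 on the GEM_VPA, VPA and GEM arrays and at 10.90 on the untreated array (2.32-fold). FN1, ITGA2 and TGM2 share the same order of levels, with VPA highest, then GEM, then GEM_VPA, then untreated.

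Of 28 measured integrin ligand and basement membrane genes, 3 were 1.5-fold higher (SPP1, FN1 and COL12A1, a fibril-associated collagen, at 0.85) and 0 lower. Of all genes at level, 1.24% were 1.5-fold higher and 0.366% lower. The list median was -0.02, close to the -0.03 of all genes, and 12 of the 28 were at level. Below the limit, the laminin chains LAMB3, LAMC1 and LAMB1 were at 0.50, 0.47 and 0.34. Of 17 integrin receptor genes, 13 were above 0 (median 0.09), where 42.5% of all genes were. ITGA2 was 1.5-fold higher, and ITGB8, a beta subunit that activates latent TGF-beta, was lower (-0.73). ITGB8 had 9.39 on the GEM_VPA array against 10.12 untreated, while VPA and GEM alone were at 10.46 and 10.31, so it was lowest with the combination. LTBP1, which holds latent TGF-beta in the matrix, was at 0.95, with 8.92 on the GEM_VPA array, 8.52 with VPA, 7.91 with GEM and 7.97 untreated.

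Promoter sequences are shown for 3 of these matrix genes, which were higher, and for TNFSF18, the gene at level with the largest difference in size, so that the start regions of genes on both sides can be compared. They come from RefSeq (GRCh38.p14), run from 250 bases before to 50 bases after the annotated start, and are given 5′ to 3′. Capitals mark matches, on either strand, to TATAAA (the TATA box), GGGCGG (the GC box of Sp factors), CAGGTG (an E-box bound by SNAI2 and other factors) or TGANTCA (the AP-1 motif). GC box matches can overlap one another.
SPP1, chr4:87975464-87975763, strand +: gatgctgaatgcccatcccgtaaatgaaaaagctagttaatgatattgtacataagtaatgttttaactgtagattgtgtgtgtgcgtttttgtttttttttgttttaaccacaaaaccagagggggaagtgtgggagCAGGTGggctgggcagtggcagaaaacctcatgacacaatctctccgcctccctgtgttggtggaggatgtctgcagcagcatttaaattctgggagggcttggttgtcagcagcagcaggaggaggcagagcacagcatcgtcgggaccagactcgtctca
FN1, chr2:215436019-215436318, strand -: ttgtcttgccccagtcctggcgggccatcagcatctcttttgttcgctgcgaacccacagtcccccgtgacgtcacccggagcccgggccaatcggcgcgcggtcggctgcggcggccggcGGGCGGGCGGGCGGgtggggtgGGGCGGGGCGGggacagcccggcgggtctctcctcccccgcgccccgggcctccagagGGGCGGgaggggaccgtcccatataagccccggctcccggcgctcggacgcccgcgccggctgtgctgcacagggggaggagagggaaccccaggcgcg
ITGA2, chr5:52989102-52989401, strand +: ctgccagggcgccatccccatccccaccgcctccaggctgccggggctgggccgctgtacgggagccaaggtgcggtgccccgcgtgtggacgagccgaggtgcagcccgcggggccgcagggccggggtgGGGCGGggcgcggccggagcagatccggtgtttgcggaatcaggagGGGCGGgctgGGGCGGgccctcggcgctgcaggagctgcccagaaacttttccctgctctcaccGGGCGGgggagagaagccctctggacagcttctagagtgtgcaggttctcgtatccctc
TNFSF18, chr1:173050892-173051191, strand -: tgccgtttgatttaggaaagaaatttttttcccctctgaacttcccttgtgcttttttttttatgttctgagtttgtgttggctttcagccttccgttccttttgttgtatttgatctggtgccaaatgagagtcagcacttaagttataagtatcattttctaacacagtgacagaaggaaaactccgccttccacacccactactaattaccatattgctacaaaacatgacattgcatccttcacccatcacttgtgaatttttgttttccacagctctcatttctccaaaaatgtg

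The SPP1 window held 1 CAGGTG match, at position -112 from the start, and none of the other motifs, with 47.7% G and C bases. The FN1 window held 6 GC boxes and the ITGA2 window 4, with 76.7% and 72.7% G and C bases. The TNFSF18 window held 0 matches to these motifs and 38% G and C. Over the 121 of 142 genes 1.5-fold higher that had a promoter in the table, 71.9% held a GC box, against 72.4% of 9252 genes at level with a promoter and 44.6% of all 27305 genes in the table. CAGGTG was in 18.2% of the higher genes' promoters, 19.0% of those at level and 20.6% of all. TGANTCA was in 8.26% (10 promoters), 4.30% and 7.76% of the same groups. Median G and C content was 68% in the higher genes' promoters and 66% in those at level. TATAAA was in 5.79% of the higher genes' promoters and 5.52% of those at level. GC boxes, E-boxes and TATA boxes were therefore about as frequent in the higher genes as in genes at level. The same count is void for the genes 1.5-fold lower, because only 28 of 42 (66.7%) had a promoter in the table. A match is a string of letters and not a bound site.

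SNAI2, the transcription factor Slug, which represses epithelial genes, was at 10.04 with GEM_VPA, 9.86 with VPA, 9.41 with GEM and 8.74 untreated (2.46-fold higher with GEM_VPA). Every drug array lay above the untreated one. Of 17 EMT transcription factor and mesenchymal genes, SNAI2 and TGM2 were 1.5-fold higher and 0 lower, with 9 at level. Of all genes at level, 1.24% were 1.5-fold higher and 0.366% lower. The median of the EMT list was -0.02, and VIM, the filament protein vimentin, was at 0.23. Of 20 epithelial genes, 2 were 1.5-fold lower and 0 higher, with a median of 0.00. CLDN1, a tight junction claudin, differed by 0.76 but was not at level. The 2 lower genes were ELF3, an epithelial ETS factor (8.57 with GEM_VPA against 9.28 untreated, -0.71), and KRT7, a keratin of simple ducts (8.93 against 9.53, -0.60). On the VPA and GEM arrays KRT7 was at 11.50 and 11.14, so the combination array was the lowest of the 4. The KRT7 difference fell short of 1.5-fold after quantile normalization or removal of the lowess trend (-0.57 each). CDH1, E-cadherin, was at 11.24 against 11.03.

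CNTN1, contactin 1, an immunoglobulin-family adhesion protein of neurons, had the highest difference of all genes at level. It was at 8.79 with GEM_VPA, 9.46 with VPA, 8.17 with GEM and 7.21 untreated, 3.00-fold higher with GEM_VPA. Of 17 neural adhesion genes, CNTN1 alone passed 1.5-fold at level, and 4 were at level. NCAM1 differed by 0.68 but stayed below the array median on both arrays (7.46 with GEM_VPA, 6.77 untreated). Of 22 neuronal genes, 6 were at level. Of these TMOD2, MAP2 and VGF were 1.5-fold higher and 0 were lower, where 1.24% of all genes at level were higher and 0.366% lower. TMOD2, a tropomodulin that caps actin filaments, was at 10.36 with GEM_VPA, 10.50 with VPA, 9.93 with GEM and 9.22 untreated (2.20-fold). MAP2, a microtubule-binding protein of dendrites, was at 8.91 with GEM_VPA, 10.38 with VPA, 9.71 with GEM and 8.12 untreated. VGF, a secreted neuropeptide precursor, was at 9.69, 9.43 and 8.80 on the GEM_VPA, VPA and GEM arrays and 8.90 untreated. The neuronal list had a median of 0.04 over all its members and 0.60 over the 6 at level, which include members that passed only through their level on the GEM_VPA array.

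IQGAP2, a scaffold that binds actin and small GTPases, was at 8.45 with GEM_VPA, 10.70 with VPA, 9.24 with GEM and 7.04 untreated (2.67-fold higher with GEM_VPA). Among 18 IQGAP and RAS regulator genes, 15 were above 0, with a median of 0.13, and IQGAP2 alone passed the 1.5-fold limit. Of all genes, 42.5% were above 0. NF1, which switches RAS off, was at 0.48. SGPP2, a sphingosine-1-phosphate phosphatase, was at 9.15 with GEM_VPA, 8.45 with VPA, 8.10 with GEM and 8.01 untreated (2.21-fold). It was the only one of 16 sphingosine-1-phosphate genes past 1.5-fold. STAT4, a transcription factor of cytokine signalling, was at 8.94 with GEM_VPA, 9.36 with VPA, 9.10 with GEM and 7.87 untreated, so both single drugs lay above the combination. PAG1, an adaptor that recruits the kinase CSK, was at 8.55 with GEM_VPA, 7.88 with VPA, 7.44 with GEM and 7.50 untreated. SSBP2, a single-stranded DNA-binding protein, was at 10.00 with GEM_VPA, 9.53 with VPA, 8.09 with GEM and 8.75 untreated. For PAG1 and SSBP2 the combination was the highest array and GEM the lowest. ZCCHC12, a zinc finger protein, was at 8.53 with both GEM_VPA and VPA, 7.55 with GEM and 7.24 untreated. SH3BGRL2 was at 9.89 with GEM_VPA, 9.56 with VPA, 8.59 with GEM and 8.73 untreated. Just inside the 2-fold limit were STAT4 (1.07), PAG1 (1.05) and ITGA2 (1.04). Just outside it were FZD3, a Wnt receptor (0.99), HPCAL4, a neuronal calcium sensor (0.98), and AMOT, angiomotin, which binds YAP (0.97). MLLT3, a subunit of the super elongation complex, was at 0.96 and CRYM, which binds thyroid hormone, at 0.95.

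**Figure D2:**
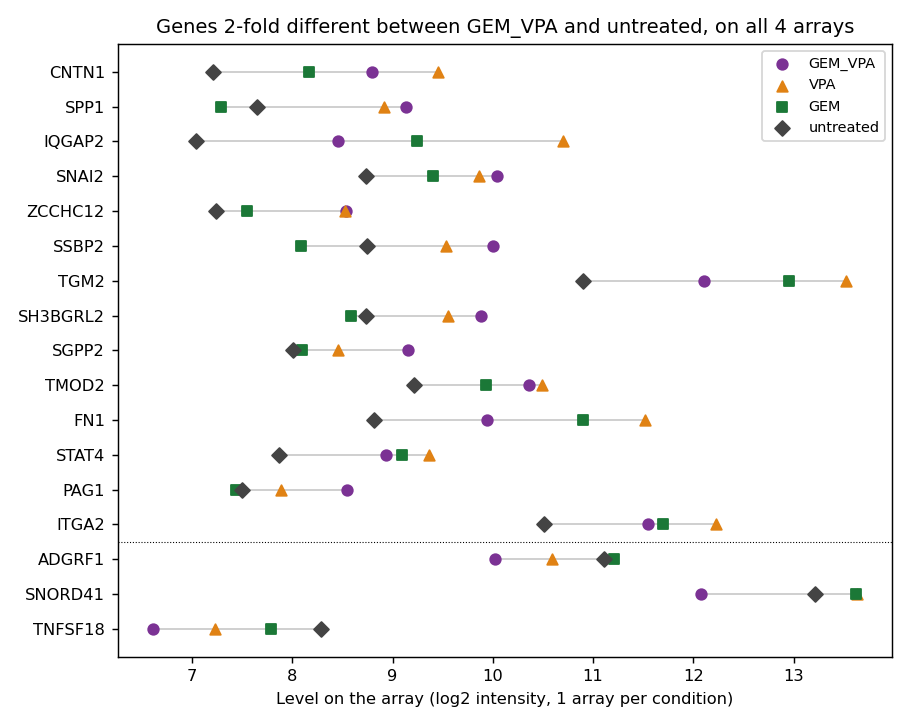
Level (log2 intensity) of the 17 genes 2-fold different between GEM_VPA and untreated, on all 4 arrays with 1 point per array. The 14 genes above the dotted line were higher with GEM_VPA and the 3 below it lower. TGM2, FN1 and IQGAP2 have higher points for VPA and GEM alone than for the combination, while SPP1, SSBP2 and SGPP2 have their highest point with the combination.

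Of the 3 genes 2-fold lower, TNFSF18 encodes the ligand of GITR, a receptor that costimulates T cells. It had 6.61 on the GEM_VPA array, 7.23 with VPA, 7.79 with GEM and 8.29 untreated, 3.20-fold lower with GEM_VPA. The untreated array was highest and the GEM_VPA array lowest, with its value below the array median. Of 15 TNF superfamily ligand genes, 11 were not at level and TNFSF18 alone was 1.5-fold lower, with 0 higher. Its receptor TNFRSF18 was at 9.63 with GEM_VPA and 9.62 untreated. ADGRF1, an adhesion G protein-coupled receptor, was at 10.02 with GEM_VPA, 10.59 with VPA, 11.20 with GEM and 11.11 untreated (2.13-fold lower). It was the only one of 23 receptors of that family past 1.5-fold. SNORD41, a small nucleolar RNA, was the other one. Apart from ITGB8, which came between IL20RB and MKX, the next lowest genes were ODAD2, of the ciliary dynein docking complex (-0.97), SUSD2 (-0.94), SNORA20 (-0.84), IFI35, an interferon-induced protein (-0.83), DDIT4, an inhibitor of mTORC1 (-0.82), DHRS3, which reduces retinal (-0.80), TLCD1 (-0.76), IL20RB, a receptor subunit for the IL-20 cytokines (-0.74), and MKX, a homeobox factor (-0.72). For SUSD2, IFI35 and DDIT4 the GEM array was the highest of the 4 and the GEM_VPA array the lowest. ODAD2 was at 8.20 with GEM_VPA against 9.16 untreated, and lower still with VPA (7.70) and GEM (7.65).

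Small nucleolar RNAs guide chemical modification of ribosomal RNA, and most in human cells are cut from introns of host genes. In the list of C/D box RNAs, which guide ribose methylation, 37 were measured. Of these, 36 were below 0 and 1 above, with a median difference of -0.41, while all genes had -0.03. At 1.5-fold, 5 were lower (SNORD41, SNORD45B, SNORD34, SNORD79 and SNORD46) and 0 higher, out of 33 at level. SNORD79 and SNORD46 lay at the limit and no longer passed after quantile normalization or removal of the lowess trend. The share of all genes at level past that limit was 0.366%. SNORD41 was at 12.08 with GEM_VPA, 13.63 with VPA, 13.62 with GEM and 13.21 untreated (2.19-fold lower). SNORD79 was at 9.99 on the GEM_VPA array, 10.41 with VPA, 10.65 with GEM and 10.59 untreated. SNORD34 (9.62, 9.47 and 9.63 on the GEM_VPA, VPA and GEM arrays, 10.27 untreated) and SNORD45B (7.50, 6.99 and 7.20, against 8.16 untreated) were not lowest with the combination. The highest member, SNORD53, was at 0.09. Over all 115 measured genes with a SNORD symbol, at level or not, 102 were below 0 and the median was -0.20, smaller in size than in the list.

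The family was then widened, after its values were seen, to every gene at level whose symbol starts with SNORD, SNORA (H/ACA box RNAs, which guide pseudouridylation) or SCARNA (Cajal body RNAs). Of these 93 genes, 84 (90.3%) were below 0, against 56.4% of the 11396 other genes at level. Their median difference was -0.33, against -0.03. Some of the 93 passed the filter only through their untreated level, which places their difference below 0. SNORD105 and SNORD45B, both 1.5-fold lower, were among them. SCARNA8, above 0, passed only through its GEM_VPA level. Without the filter, 46 of 61 SNORA and 14 of 16 SCARNA genes were below 0, against 10561 of all 18377 genes. The median level of the 93 was 9.19 on the GEM_VPA array, 9.47 with VPA, 9.53 with GEM and 9.59 untreated. The GEM_VPA array was the lowest of the 4 for 60 of the 93 (64.5%), against 25.1% of the other genes. Because 84 of the 93 already lay below untreated, a raised share is partly built into this count. Among the 42 genes 1.5-fold lower, 7 were classed as snoRNA by RefSeq (16.7%), against 0 of the 142 higher genes and 83 of the 11489 at level (0.722%). Cytosolic ribosomal protein genes, whose introns host many of these RNAs, had a median of -0.11, with 46 of 51 below 0 and 0 past 1.5-fold.

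**Figure D3:**
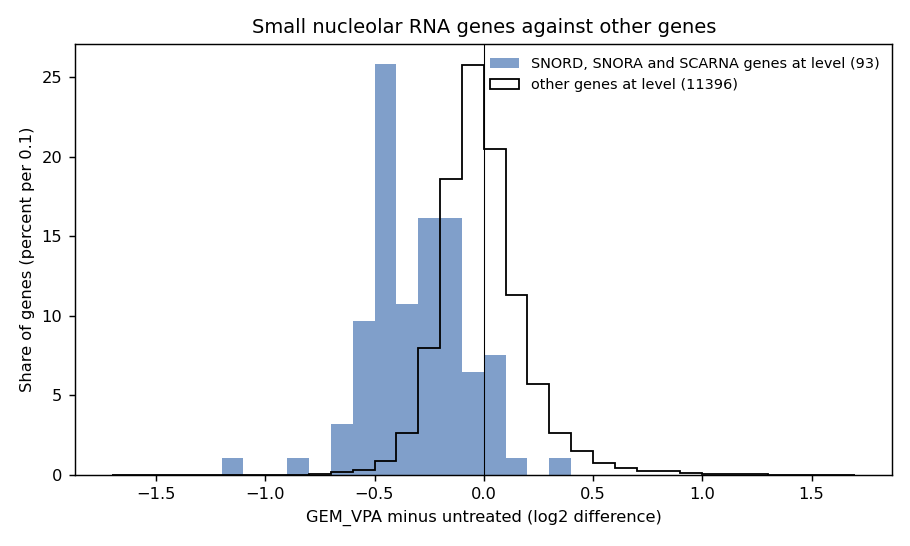
Share of genes (percent) in steps of 0.1 of the GEM_VPA minus untreated difference (log2), for the 93 SNORD, SNORA and SCARNA genes at level (filled) and the 11396 other genes at level (line). The filled bars centre near -0.33 and the line near -0.03.

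MicroRNAs are short RNAs that repress messages matching their seed (bases 2 to 8). Of 27 microRNA genes at level, 1 was 1.5-fold lower (MIR221) and 1 higher (MIR21, named after its values were seen). The shares of all genes at level were 0.366% lower and 1.24% higher. The mature sequences from RefSeq (GRCh38.p14) are shown to mark these 2 and MIR222, which lies next to MIR221. Capitals mark the seed, which miR-221-3p and miR-222-3p share.
hsa-miR-221-3p, chrX:45746180-45746202, strand -: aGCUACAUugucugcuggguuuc
hsa-miR-222-3p, chrX:45747036-45747056, strand -: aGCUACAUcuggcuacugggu
hsa-miR-21-5p, chr17:59841273-59841294, strand +: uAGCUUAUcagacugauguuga

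MIR221 was at 9.36 with GEM_VPA, 10.37 with VPA, 10.31 with GEM and 10.08 untreated (-0.72). MIR222 was at 6.58 with GEM_VPA and 6.80 untreated (-0.21), below the array medians. MIR21 was at 9.67 with GEM_VPA, 9.06 with VPA, 8.93 with GEM and 9.07 untreated (0.59), and no longer passed 1.5-fold after quantile normalization (0.58). The combination array was thus the lowest of the 4 for MIR221 and the highest for MIR21. Whether the array rows read the precursor or the mature form was not analysed here.

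The VPA and GEM arrays gave a second difference that uses neither the GEM_VPA nor the untreated array, although all 4 arrays may have been normalized together. In both differences an array with VPA is set against one without it. GEM also differs between the sides, being on the first array in GEM_VPA minus untreated and on the second in VPA minus GEM. Whether VPA accounts for a shared direction was not tested. Of the 142 genes 1.5-fold higher with GEM_VPA than untreated, 139 (97.9%) were also higher on the VPA array than on the GEM array. Among all genes at level the share was 47.8%. By the 1.5-fold limit, 75 of the 142 (52.8%) were higher on the VPA array and 0 lower, against 1.91% and 0.252% of all genes at level. The median VPA minus GEM difference of the 142 was 0.60. All 14 genes 2-fold higher lay above 0, between 0.26 for STAT4 and 1.63 for SPP1. The 3 exceptions among the 142 were DHRS2 (-0.13), a dehydrogenase known from HDAC inhibitor responses, LAMP3 (-0.44) and VCAN (-0.07), of which LAMP3 and VCAN were named after their values were seen.

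Of the 42 genes 1.5-fold lower, 32 (76.2%) were also lower on the VPA array than on the GEM array, and 9 (21.4%) reached 1.5-fold. Among all 11489 genes at level, 5999 were lower on the VPA array and 0.252% reached 1.5-fold. TNFSF18 (-0.56) and ADGRF1 (-0.61) were among the 32. SNORD41 (0.01), SNORA20 (0.05), MIR221 (0.06), ODAD2 (0.04), ITGB8 (0.16) and KRT7 (0.36) were not. Across the 11489 genes at level, the 2 differences correlated at r = 0.547. Genes are not independent replicates, so this is a description only. The small nucleolar genes had a median VPA minus GEM difference of -0.05.

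**Figure D4:**
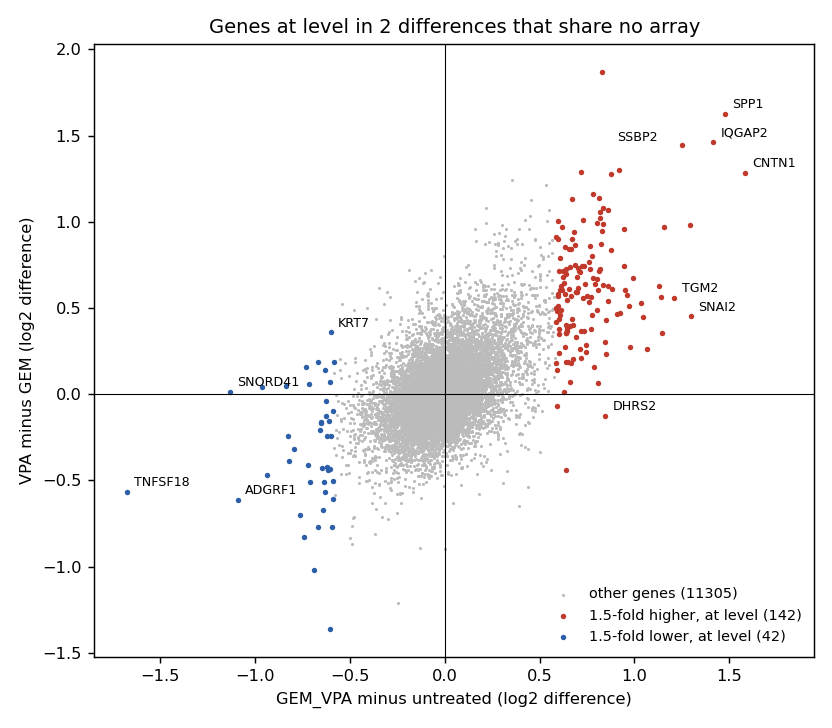
VPA minus GEM difference against GEM_VPA minus untreated difference (both log2) for the 11489 genes at level, 1 point per gene. Nearly all of the 142 genes 1.5-fold higher with GEM_VPA (red) lie above 0 on the vertical axis, and 32 of the 42 lower genes (blue) lie below it.

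The place of the combination among the 4 arrays varied between genes. It was the highest of the 4 for 95 of the 142 higher genes (66.9%, against 23.8% of all genes at level). Because these genes were picked for lying above untreated, a share above that of all genes is built into the choice. GEM was the lowest array for 80 of the 142 and untreated for 60, against 3239 and 2167 of all 11489 genes at level. Of the 42 lower genes, GEM_VPA was the lowest of the 4 for 30 (71.4%), against 25.4% of all genes at level. Untreated was the highest for 18 and GEM for 17, against 3663 and 2825 of the 11489. The lower genes were picked for lying below untreated, so here too raised shares are built into the choice.

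Of 17 measured HDAC inhibitor response genes, 12 were above 0 (median 0.08), and 2 of the 13 at level passed 1.5-fold, 1 in each direction, where 1.60% of all genes at level did. DHRS2 was 1.5-fold higher (8.23 with GEM_VPA, 7.22 with VPA, 7.34 with GEM, 7.39 untreated), and H2BC12, a histone H2B gene with near-identical copies, was lower (10.93 with GEM_VPA, 12.31 with VPA, 13.08 with GEM, 11.52 untreated). The H2BC12 difference fell short of the limit after quantile normalization or removal of the lowess trend (-0.57 each). CCN2, a matricellular growth factor, was at 0.54. The HDAC genes themselves lay between -0.29 (HDAC7) and 0.10 (HDAC8), with 0 of 8 past 1.5-fold. Of 26 fatty acid oxidation and valproate handling genes, 17 were above 0 (median 0.08) and 0 passed, with ACSL1, which activates long-chain fatty acids, at 0.57 and PDK4, a kinase that restrains pyruvate oxidation, at 0.44.

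Of 18 gemcitabine uptake, activation and inactivation genes, 16 were below 0 (median -0.09). NT5E, an ecto-5'-nucleotidase, was the only one of the 15 at level past 1.5-fold (11.61 with GEM_VPA against 10.98 untreated). The activating kinase DCK was at 10.51 against 10.67, the inactivating deaminase CDA at 10.79 against 10.81, RRM1 and RRM2 of ribonucleotide reductase at 11.73 against 11.72 and at 11.86 against 11.90, and the transporter SLC29A1 at 11.80 against 11.89. On the GEM array, by comparison, DCK was at 9.60 and CDA at 12.09. None of 30 G1/S and replication genes (median -0.09), 28 G2/M genes (median -0.05) or 22 p53 target genes (median -0.08) passed 1.5-fold in either direction, and at a background of 1.60% a list of this size can hold 0 such genes. CDKN1A, the CDK inhibitor p21, was at 11.05 with GEM_VPA and 11.17 untreated, against 12.63 and 13.04 with VPA and GEM alone. CCND1 was at 12.95 against 12.83 and BCL2L1, an inhibitor of apoptosis, at 12.68 against 12.53.

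ATF4 drives amino acid synthesis and stress genes. Of 27 ATF4 and unfolded protein response genes, 22 were below 0 (median -0.19). DDIT4 alone was 1.5-fold lower (8.84 with GEM_VPA, 9.56 with VPA, 9.95 with GEM, 9.67 untreated), and 0 were higher. CHAC1, which degrades glutathione, was at -0.56, DDIT3, the factor CHOP, at -0.48 and PSAT1 of serine synthesis at -0.44. SLC7A11, the cystine transporter, was at 11.01 with GEM_VPA and 10.93 untreated. Among 24 immediate-early and ERK feedback genes, 16 were above 0 (median 0.12) and 0 passed, with EGR1 the highest at 0.45. Of 30 interferon-stimulated genes, IFI35 alone was 1.5-fold lower and 0 higher. Of 23 NF-kB and cytokine genes, NFKBIA, the inhibitor of NF-kB, was lower (10.34 with GEM_VPA against 10.93 untreated, -0.59) and 0 were higher. NFKBIA no longer passed under any of the 3 rescalings (-0.58 to -0.57). Of 21 YAP and TEAD target genes, NT5E was higher (0.63) and F3, tissue factor, lower (-0.63).

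Cholesterol synthesis (17 genes), NRF2 and glutathione (21) and TNF receptor (22) genes had 0 members past 1.5-fold. The same held for fibroblast (13), endothelial (10) and hepatocyte markers (11). Only 3, 2 and 2 of these markers were at level, and other genes cannot be counted, so these zeros carry little information. The bile duct markers had SPP1 and CD24 higher (CD24, a surface sialoglycoprotein, 8.69 against 7.97) and KRT7 lower out of 10. Among 25 actin, tropomodulin and myosin cytoskeleton genes TMOD2 alone passed.

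**Figure D5:**
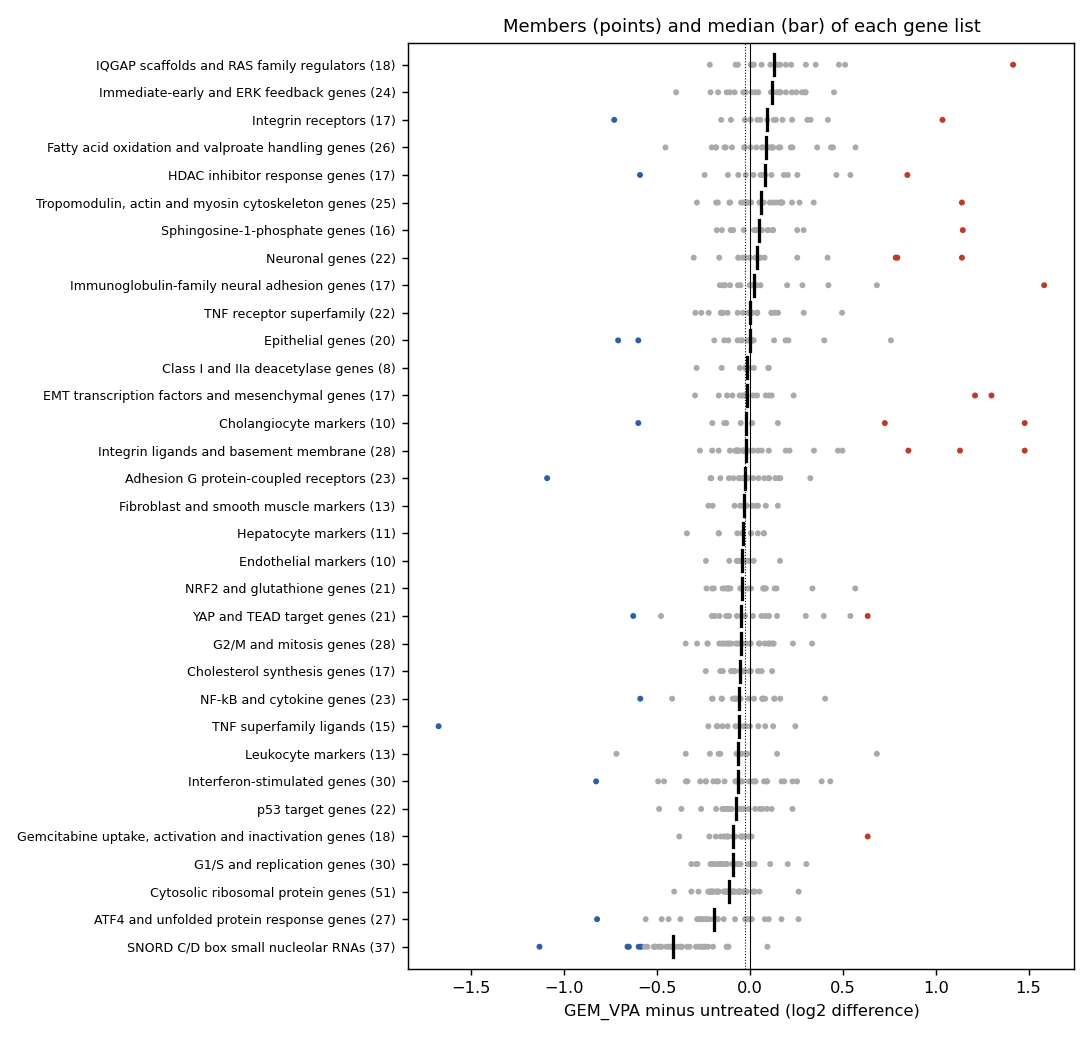
GEM_VPA minus untreated difference (log2) of the measured members (points, number in brackets) and the median (bar) of each gene list, sorted by median. Red points were 1.5-fold higher and blue points 1.5-fold lower at level, and the dotted line is the median of all genes. The SNORD list has the lowest median, -0.41, and the other medians lie between -0.19 and 0.13.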

How the data were processed

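HuCCT1 RNA was hybridised to 4 Affymetrix Human Gene 1.0 ST arrays. The authors deposited log2 intensity values. GeneSpring GX 11.5 did the normalization according to the series' design text, and the submitters' processing notes name RMA. RMA compresses low values. A genome build was not given in the sources used here.

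Of 28869 rows, 19310 had 1 symbol, 1752 several and 7807 none. Rows with 1 symbol were averaged to 18377 genes. Differences were GEM_VPA minus untreated, counted at 2-fold (the authors' limit) and 1.5-fold when the higher value reached the array's median. Genes named were the 20 highest and 15 lowest at level, all past 2-fold, up to 4 members per list past 1.5-fold, and 10 drug and lineage genes fixed by name. Some other list members below the limit are given as examples, chosen after their values were seen. The 33 lists and the members were chosen with earlier results of these data known. The counting rule was tested on simulated data, with shifts placed only in genes well above the array medians. Shifts in genes near the level filter were not covered. Samples without replicates allow no test. The number of arrays limits the precision. Alternatives covered normalization, centring, a lowess trend (span 0.3), the level filter, the choice of row and the list summary. Software was Python 3.11.15 with numpy 2.4.6, pandas 2.3.3, scipy 1.17.1 and statsmodels 0.14.6.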

Additional observations from a re-analysis of the deposited data

Results flagged for a closer look

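Rows with several or no gene symbol were not used in the gene comparison, and 6 of the 2703 of these at level were 2-fold different (0.222%), which is why they are given here. Row 8178193 (log2 difference 1.42), row 8179481 (1.25) and row 8118548 (1.23), each annotated with 2 symbols, were higher with GEM_VPA. All 3 were also higher on the VPA array than on the GEM array (1.20, 1.15 and 1.16). Their levels were close to one another on every array, such as 10.78, 10.53 and 10.48 with VPA. Whether they read the same gene was not analysed here, so they may not be separate cases. Of the rows with no symbol, row 8021368 was higher with GEM_VPA (1.29) and lower on the VPA array than on the GEM array (-0.70). Rows 8121743 (-1.01) and 7998927 (-1.12), also without a symbol, were lower with GEM_VPA.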

How the results depend on the processing

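Without the level filter, 5 genes were 2-fold lower in place of 3. With both values required at or above the array median, 8 genes were 2-fold higher in place of 14, since CNTN1, SPP1, IQGAP2, ZCCHC12, STAT4 and PAG1 lay below the median on the untreated array. All other counts stayed within 1.5 times their value in every alternative run (quantile normalization again, median centring, lowess trend, other filters, 1 row per gene), with 109 to 169 genes 1.5-fold higher and 30 to 56 lower. The share of the higher genes above 0 in VPA minus GEM stayed between 97.0% and 98.2% for the 1.5-fold limit. FZD3, HPCAL4 and AMOT passed 2-fold after the lowess trend was removed (1.02, 1.01 and 1.00). No gene named by the rule and past 1.5-fold changed sign, but some near the limit lost the call. NFKBIA and SNORD46 lost it under quantile normalization, median centring and the lowess trend, H2BC12, KRT7 and SNORD79 under quantile normalization and the lowess trend, and MIR21 under quantile normalization. With both values required at the median, AMOT, DHRS2, IL20RB, SNORD45B and TNFSF18 also lost theirs. Of 33 list medians, 25 kept their sign and 8 close to 0 did not. Integrin ligands gave 0.28 over members at level and a mean of 0.15, and the SNORD list stayed between -0.41 and -0.39. The integrin ligands at level include SPP1, which passed the filter only through its level on the GEM_VPA array. Values below the array median are compressed, so such sizes may be understated. No paired analysis was possible because each condition has 1 array.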
